A study of Drosophila melanogaster with 6 samples.

Results

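The thioester-containing proteins of Drosophila melanogaster are represented here by 5 genes, Tep1, Tep2, Tep3, Tep4 and Mcr, taken by their symbols from the 17714 genes that the deposited tables list. All 5 were present. They were followed in poly(A) RNA of Kc cells, an embryonic fly cell line with traits of plasmatocytes, the macrophage-like blood cells of the fly. The wild type (WT) gave 3 libraries, and a further 3, called KO here, have source and genotype fields that read ko, in a study titled for CG14906 (mettl4) and the m6A methylation of U2 snRNA. The titles of the KO libraries begin with OE in place of a knockout name, and no label gives the clone, the edited site or the culture from which a library was made. The p-values below therefore measure the spread between libraries, which may be technical.

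Thioester proteins are large secreted proteins related to the complement factors and to alpha-2-macroglobulin, the protease-trapping protein of vertebrate blood. A reactive thioester bond lets complement factors, and TEP1 of the malaria mosquito, attach to the surface of a microbe and mark it for uptake. In fly cells grown in culture, knockdown screens tied Tep2, Tep3 and Mcr to the uptake of different microbes. Mcr, the macroglobulin complement-related protein, lacks the reactive cysteine of the thioester and is also a component of septate junctions, the occluding cell contacts of insect epithelia. Tep4 is widely used as a marker of blood cell progenitors in the lymph gland, and Tep1 is known to be induced by JAK-STAT signalling.

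The libraries held between 9963557 and 18906951 expected counts. Nuclear rRNA took 3.96% of the counts in WT replicate 1 and 4.09% in KO replicate 1, against 0.159% to 1.81% in the other 4 libraries, and the second principal component (11.8% of the variance) set the same 2 libraries apart. WT replicates 2 and 3 agreed more closely than any other pair (mean chi-square per gene 1.68 over 5181 genes, against 3.04 for the next closest pair, KO replicates 2 and 3). CG14906 RNA was found at 18.5 ± 1.91 CPM (counts scaled to a common library size, normalised with TMM) in the WT and 19.7 ± 1.02 CPM in the KO libraries (SD, n = 3 each), with a log2 fold change of 0.10 (SE 0.10, adjusted p = 0.435). The RNA level thus showed no loss of the targeted gene, and directions below are those of the libraries labelled ko.

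All 5 genes lie on chromosome arm 2L (dm6 coordinates). Tep2 occupies 7693727 to 7701601 on the minus strand, and Tep3 occupies 7702805 to 7710690 on the plus strand, so that the 2 genes point away from each other with 1203 bases between them. Mcr lies at 8074117 to 8082982 on the minus strand, with its start 381 kb from that of Tep2. Tep1 lies at 15888640 to 15893811 on the minus strand and Tep4 at 19548507 to 19556451 on the plus strand. Coding lengths in the annotation give proteins of 1354 amino acids for Tep1, 1469 for Tep3 and 1760 for Mcr, each from a single transcript. The 5 Tep2 transcripts encode 1399 to 1420 amino acids and the 4 Tep4 transcripts 1476 to 1498.

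Of the 5 genes, Tep2, Tep4 and Mcr were well expressed in Kc cells and passed the filter on low counts. Tep1 and Tep3 did not. Of the 3 tested genes, Tep2 rose in KO, Mcr fell, and Tep4 did not pass the test. Among all 8405 tested genes 54.1% were called by edgeR's quasi-likelihood test at an adjusted p under 0.05 (27.7% as higher, 26.5% as lower), so a call is common in these data and 2 of 3 is not far from that background.

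Tep2 was counted with 3397 to 6648 reads per library. Its normalised level was 329.8, 339 and 325 CPM in WT replicates 1 to 3 and 475, 451 and 453 CPM in KO replicates 1 to 3. All KO libraries stood above all WT libraries, a separation of groups found for 63.3% of all tested genes, and the spread within either group was small. The mean rose from 331 ± 6.93 to 459.5 ± 13.5 CPM (SD, n = 3 each), a 1.39-fold change (log2 fold change 0.47, SE 0.05, 95% interval 0.36 to 0.59, adjusted p = 0.000271 by edgeR). Among the genes called higher in KO, 62.0% had a larger fitted rise than Tep2, so the change was modest in size and was called on close replicates.

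Mcr moved the other way, on 812 to 2193 reads per library. It stood at 133, 119 and 109 CPM in WT and at 86.9, 80.1 and 70.4 CPM in KO. The groups did not overlap. The mean fell from 120.2 ± 12.3 to 79.1 ± 8.28 CPM, a KO level 0.659 times that of WT (log2 fold change -0.60, SE 0.10, 95% interval -0.84 to -0.36, adjusted p = 0.00213). Among the genes called lower in KO, 32.7% had a larger fitted fall.

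Tep4 was read 3419 to 7272 times per library and overlapped between the groups. It stood at 441, 357 and 341 CPM in WT and at 393, 297 and 297 CPM in KO. Replicate 1 was the highest library of each group, and these are the same 2 libraries that had the largest share of rRNA. The means were 379.7 ± 54.0 CPM in WT and 329 ± 55.6 CPM in KO (log2 fold change -0.21, SE 0.14, 95% interval -0.54 to 0.12, adjusted p = 0.245). Within each replicate number the KO library was the lower in 3 of 3 cases, and with these numbers entered as a block, that is as pairs, the log2 fold change was -0.21 (SE 0.05, adjusted p = 0.0098). With the rRNA genes taken out of the counts it was -0.21 (adjusted p = 0.234). Without both number-1 libraries it was -0.24 (adjusted p = 0.000463). Without KO replicate 1 alone it was -0.36 (adjusted p = 0.0299), and without WT replicate 1 alone -0.10 (adjusted p = 0.561). The Tep4 difference thus passed or failed the test depending on how the number-1 libraries entered the fit. In bulk RNA, fewer cells that express a gene and less RNA per cell cannot be told apart.

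**Figure D1:**
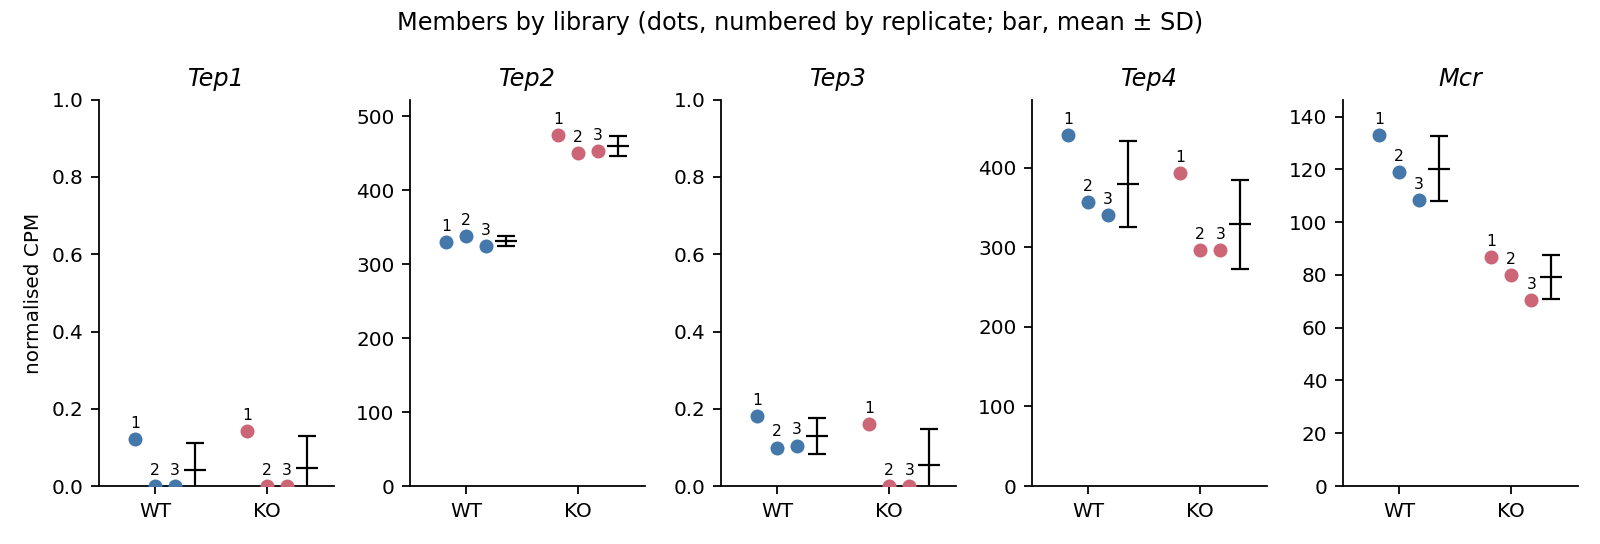
Normalised CPM of the 5 genes in each library (dots, numbered by replicate) with the mean and SD of each group (n = 3). Tep2 is higher in all KO libraries (451 to 475 CPM against 325 to 339), Mcr is lower in all KO libraries (70.4 to 86.9 against 109 to 133), Tep4 overlaps between the groups, and Tep1 and Tep3 stay below 1 CPM on an axis of their own, where SD bars are cut at 0.

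Tep1 and Tep3 were close to silent. Tep1, the member known for its response to JAK-STAT signalling, had 2 counts in WT replicate 1, 2 counts in KO replicate 1 and 0 in the other 4 libraries. Summed over each group that is 0.0439 CPM in WT and 0.0518 CPM in KO (of raw totals), with upper 95% Poisson limits of 0.159 and 0.187, and both groups lie under the floor of 3 counts per group, so no fold is given. Tep3 had 3, 1 and 2 counts in WT and 2.25, 0 and 0 in KO. The ratio of its summed counts (rounded to 6 and 2), WT over KO and relative to library size, was 2.54 with an exact 95% binomial interval of 0.455 to 25.8, so a difference was not detectable at this depth. These limits cover counting error only. In a fit without the count filter neither gene was called (adjusted p = 0.955 for Tep1 and 0.474 for Tep3). Tep3 shares bases with an antisense RNA gene, asRNA:CR44990, which had 1.75 counts over all 6 libraries.

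Levels of different genes were compared as TPM, which is corrected for transcript length. Tep2 stood at 108, 112 and 108 TPM in WT and at 151, 146 and 151 TPM in KO. Tep4 stood at 139, 114 and 109 TPM in WT and at 120.2, 92.8 and 95.7 TPM in KO. Mcr was the lowest of the 3, at 31.2, 28.3 and 25.8 TPM in WT and 19.8, 18.6 and 16.9 TPM in KO. In WT the ranges of Tep2 and Tep4 overlapped, so taken across libraries these neighbours in the order did not differ beyond their spread. In KO the order was Tep2, Tep4 and Mcr with no overlap between genes. Ranked by TPM among all listed genes, Tep2 held places 1375 to 1434 in the WT libraries and 910 to 972 in the KO libraries, Tep4 places 1051 to 1418 and 1181 to 1619, and Mcr places 4297 to 4811 and 5289 to 5669.

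The summed TPM of the 5 genes was 259 ± 18.3 in WT and 271 ± 17.8 in KO, with overlapping libraries, so the total of the family differed by less than the spread between libraries when these were not paired. By replicate number it was 278, 255 and 242 TPM in WT and 291, 257 and 264 TPM in KO, higher in KO in 3 of 3 pairs. Tep2 made up 42.4 ± 3.18% of the family's TPM in WT and 55.3 ± 3.01% in KO. Tep4 made up 46.6 ± 2.96% and 37.9 ± 2.99%, and Mcr 11.0 ± 0.31% and 6.80 ± 0.41%. Within a library, the ratio of Tep2 to Tep4 TPM was 0.774, 0.982 and 0.988 in WT and 1.25, 1.57 and 1.58 in KO. Tep4 was thus the higher of the pair in every WT library, though by little in replicates 2 and 3 (ratios of 0.982 and 0.988). Tep2 was the higher in every KO library. The ratio of Tep2 to Mcr went from 3.87 ± 0.37 to 8.15 ± 0.72, and that of Tep4 to Mcr from 4.24 ± 0.21 to 5.58 ± 0.55. None of the 3 ratios overlapped between the groups. For Tep2 to Mcr this follows from the single genes, which both separated, in opposite directions, so that ratio is no further evidence. Single genes separated in 63.3% of all tested genes, and the share of gene pairs that do so was not counted. Each ratio gave p = 0.1 in a two-sided exact permutation test (adjusted p = 0.1 over the 3 ratios), which is the smallest p that 3 libraries against 3 allow.

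**Figure D2:**
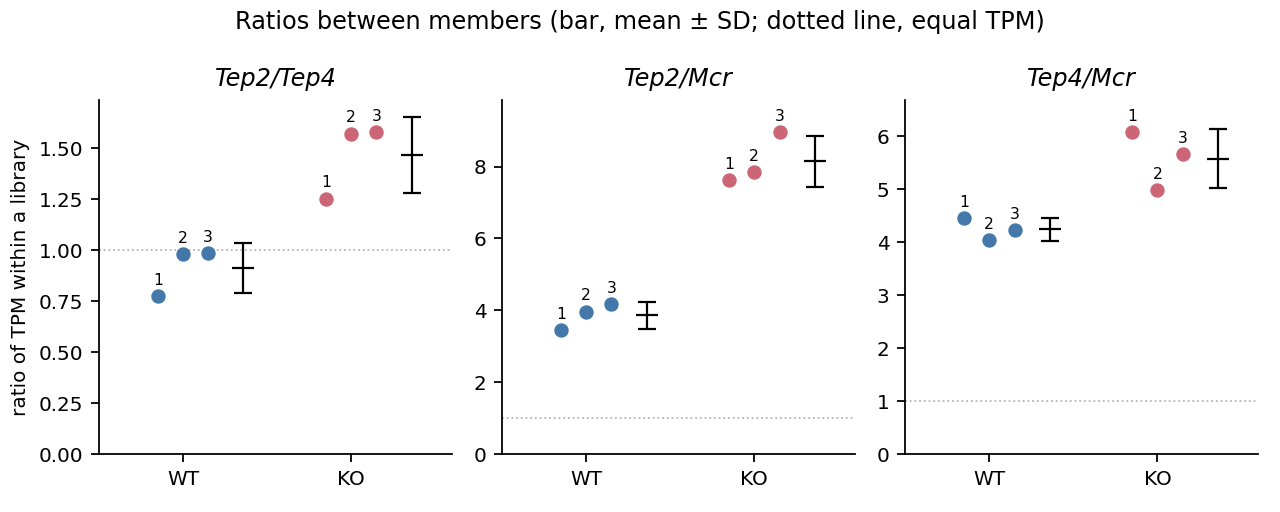
Ratio of TPM values between pairs of genes within each library (dots, numbered by replicate) with the mean and SD of each group (n = 3); the dotted line marks equal TPM. The ratio of Tep2 to Tep4 lies below 1 in the 3 WT libraries (0.774 to 0.988) and above 1 in the 3 KO libraries (1.25 to 1.58).

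Tep2 is known for its alternative exons, which vary a short stretch of the protein. In the annotation each of its 5 transcripts carries a different one of 5 coding exons of 151 to 214 bases, which lie in a row between 7696594 and 7698551 on 2L. The files give no levels of single transcripts, but the abundance-weighted transcript length of a gene moves when the mix of transcripts does. The annotated Tep2 transcripts are 4476 to 4591 bases long. They also differ in the last exon, of 1270 bases in Tep2-RF and Tep2-RG and 1185 bases in Tep2-RA, Tep2-RB and Tep2-RD. The weighted length therefore depends on this end as well as on the 5 alternative exons. The weighted length of Tep2 was 4546, 4548 and 4544 bases in WT and 4537, 4541 and 4544 bases in KO, a difference of -5.08 bases (adjusted p = 0.521, limma on log2 length). Tep4, whose 4 transcripts differ in the first exon and in 6 bases at one splice site, had weighted lengths of 4704, 4702 and 4701 bases in WT and 4704, 4703 and 4701 bases in KO (adjusted p = 0.991). Neither gene was among the 109 of 4002 genes (2.72%) whose weighted length was called, a number that fell whenever 1 library was left out: to 69, 24 and 18 on leaving out WT replicates 1 to 3 in turn, and to 69, 22 and 20 on leaving out KO replicates 1 to 3. A mean length can stay in place when several transcripts change together, so the use of the single Tep2 exons was not resolved. Tep1, Tep3 and Mcr have 1 transcript each and no length estimate to compare.

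The surroundings of the genes on 2L were taken as the annotated genes within 20 kb. Around Tep2 there were 13 such genes, of which 1 passed the count filter. This was Myo28B1, a myosin gene, at 0.226 ± 0.151 CPM in WT and 1.60 ± 0.26 CPM in KO (log2 fold change 2.93, SE 0.47, adjusted p = 0.00175). The other 12 neighbours, Tep3 among them, had 0 to 12 counts each over all 6 libraries. Tep2 was thus well expressed in a stretch of nearly silent genes. Tep2 overlaps CG43235 on the other strand, which had 3 counts in all. On the far side of Tep3, CG13795 had 0 counts in WT and 6.36 ± 2.73 CPM in KO (adjusted p = 0.000489).

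Mcr sits among active genes, and 5 of its 6 neighbours were tested. The nearby poe, a gene whose product binds calmodulin, stood at 1337 ± 47.1 CPM in WT and fell to 819 ± 15.8 CPM in KO. Its log2 fold change was -0.71 (SE 0.06, adjusted p = 9.82e-05). MED20, a Mediator subunit gene, went from 17.8 ± 1.24 to 14.0 ± 1.41 CPM (adjusted p = 0.0268), which no longer passed with DESeq2 (adjusted p = 0.0689) or without WT replicate 2 (0.085), WT replicate 3 (0.0547), KO replicate 1 (0.0653) or KO replicate 3 (0.0885). Bsg, the basigin gene whose start lies 437 bases beyond that of Mcr, stood at 399.7 ± 15.7 CPM in WT and rose to a mean of 546 CPM in KO, with a log2 fold change of 0.45 (SE 0.06, adjusted p = 0.000606). Trf, on the other side of Mcr, was not called (adjusted p = 0.441). Mcr shares bases with the antisense gene asRNA:CR45257, and whether counting used strand is not given in the sources used here.

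Around Tep4 6 of 17 neighbours were tested, with 0 higher and 2 lower in KO. The EGF receptor ligand gene spi stood at 592 ± 62.0 CPM in WT and 378 ± 86.9 CPM in KO, with a log2 fold change of -0.65 (SE 0.16, adjusted p = 0.0113). CG10165 stood at 47.2 ± 6.86 and 34.2 ± 3.33 CPM (adjusted p = 0.0168; 0.0569 without WT replicate 2 and 0.0605 without WT replicate 3). In a further fit the median change of the tested genes in each 1 Mb segment served as the zero line (segment medians as an offset), and there neither gene passed, nor did MED20 near Mcr (adjusted p = 0.112 for spi, 0.314 for CG10165 and 0.107 for MED20). All segments that hold the 5 genes had medians below 0. The median log2 fold change was -0.21 over the 55 tested genes of the segment with Tep2 and Tep3, -0.11 over 105 genes for Mcr, -0.38 over 29 genes for Tep1 and -0.30 over 79 genes for Tep4, against 0.008 over all tested genes. Relative to these medians Tep2 was higher (log2 fold change 0.69, adjusted p = 8.31e-05), Mcr was still lower (-0.49, adjusted p = 0.00665), and Tep4 turned to 0.09 (adjusted p = 0.643). The part of copy number or of regional expression in these medians was not tested.

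**Figure D3:**
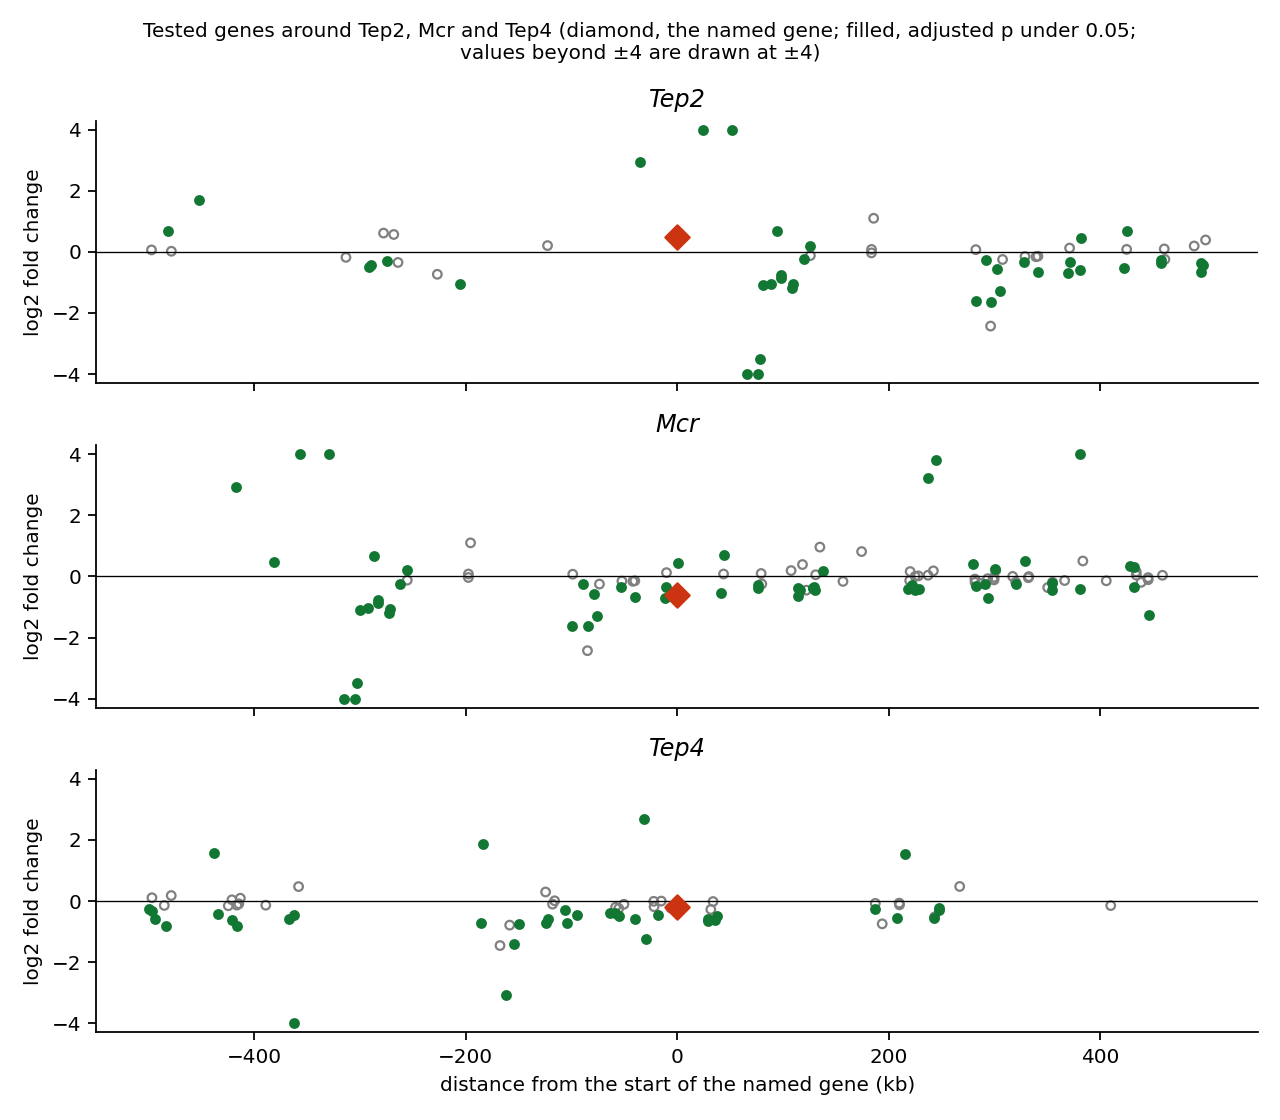
Log2 fold change (KO over WT) of tested genes against the distance in kb between their start and that of Tep2, Mcr or Tep4 (diamonds), within 500 kb; filled points passed the test and values beyond 4 in either direction are drawn at 4. In the window of Tep2 there are 10 genes higher and 30 lower of 64, in that of Mcr 17 and 43 of 110, and in that of Tep4 4 and 34 of 71. These counts include the named gene itself, and the windows of Tep2 and Mcr, whose starts are 381 kb apart, share genes. Tep2 stands above 0, where 30 of the 64 genes in its window were called lower and 26.5% of all tested genes were.

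The genes whose values followed each member most closely over the 6 libraries were found as those with the smallest root-mean-square difference of centred log2 CPM. For Tep2 these were eIF2gamma, a subunit gene of a translation initiation factor (difference 0.017), rin, the gene of a stress granule protein (0.017), and Ssadh, a dehydrogenase gene (0.020), where the median over all tested genes was 0.335. For Mcr they were CG14478 (0.046), CG5466 (0.055) and the paxillin gene Pax (0.058), with a median of 0.382. For Tep4 the nearest of all was ref(2)P, the gene of the fly homologue of the autophagy receptor p62 (0.031, median 0.299), followed by l(2)k01209 (0.037) and cib, the gene of an actin-binding protein (0.042). ref(2)P is at the same time a neighbour of Tep4, with 2958 bases between the genes. Its means were 246 ± 42.6 CPM (WT) and 211 ± 33.7 CPM (KO) (log2 fold change -0.23, SE 0.15, adjusted p = 0.229), and like Tep4 it passed the test with the block (adjusted p = 0.00603) and had a log2 fold change above 0, of 0.07, when segment medians served as the zero line.

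Mcr fell together with many other septate junction genes. Of 22 tested septate junction genes, 0 were higher and 11 lower in KO, with a median log2 fold change of -0.20, where 26.5% of all tested genes were lower. The FERM protein gene cora, a core cytoplasmic component of the junction, stood at 740.3 ± 5.58 CPM in WT and fell to 315 ± 9.45 CPM in KO, with a log2 fold change of -1.23 (SE 0.05, adjusted p = 6.22e-06). The claudin-like pck fell from 43.0 ± 2.08 to 21.2 ± 0.25 CPM, the claudin-like kune from 28.8 ± 1.93 to 19.7 ± 1.66 CPM and M6 from 65.7 ± 4.42 to 28.2 ± 3.43 CPM. Of other core components, named after their values were seen, Atpalpha, the sodium pump subunit, stood at 803 ± 15.9 and 809 ± 36.3 CPM (adjusted p = 0.904) and the neurexin gene Nrx-IV at 169 ± 12.5 and 159 ± 4.35 CPM (adjusted p = 0.276), and neither passed the test. With segment medians as an offset 11 genes of the list were lower and 3 higher, and 1 was higher with the replicate block and 2 without both number-1 libraries. The list was chosen with earlier results of these data known.

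JAK-STAT genes, the pathway known to induce Tep1, gave 3 rises (5 with the replicate block or without both number-1 libraries) and 5 falls of 12 tested (median log2 fold change 0.03), while Tep1 was close to 0 counts in both groups. The called share of this list was 66.7%, beside 54.1% of all tested genes (27.7% higher, 26.5% lower). The Janus kinase gene hop fell from 127 ± 5.73 to 84.5 ± 3.80 CPM, the negative receptor gene et from 84.7 ± 12.1 to 25.0 ± 4.77 CPM, the repressor gene ken from 96.1 ± 1.22 to 53.0 ± 2.20 CPM and the inhibitor gene Su(var)2-10 from 212 ± 13.7 to 154 ± 6.81 CPM (adjusted p from 3.76e-05 to 0.000984). Chosen after their values were seen, the receptor gene dome stood at 111 ± 16.0 and 109 ± 11.2 CPM (adjusted p = 0.808), the transcription factor gene Stat92E at 369 ± 31.2 and 449.6 ± 59.6 CPM (adjusted p = 0.0594) and the cytokine gene upd3 at 3.37 ± 2.08 and 12.8 ± 5.45 CPM (adjusted p = 0.00967). The 6 Turandot genes of the list, stress-induced targets of the pathway, had at most 6 counts each over all libraries. Other genes of the list were well counted, of which vir-1 and Socs36E were also chosen after their values were seen. The vir-1 gene stood at 5.99 ± 4.01 CPM in WT and 59.7 ± 52.4 CPM in KO (adjusted p = 0.00649). Socs36E stood at 104 ± 56.2 and 152 ± 29.1 CPM and was not called (adjusted p = 0.21). Both genes were highest in replicate 1 of each group.

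Receptors of phagocytosis, which act beside opsonins such as Tep2 and Mcr, gave 5 rises and 4 falls of 16 tested (median log2 fold change 0.63). The called share was 56%, near the 54.1% of all tested genes (27.7% higher, 26.5% lower). Without WT replicate 1 there were 9 rises, without both number-1 libraries 8, and with segment medians as an offset 1 fall. The receptor gene eater fell from 150.0 ± 3.99 to 35.1 ± 2.42 CPM, while drpr rose from 57.3 ± 2.37 to 128 ± 3.34, Dscam1 from 14.8 ± 7.58 to 166 ± 36.1 and the secreted NimB5 from 2.35 ± 0.49 to 16.9 ± 6.21 CPM. LRP1, whose mammalian counterpart takes up complexes of alpha-2-macroglobulin with proteases, was the most highly counted gene of the list and stood at 494 ± 62.7 and 559 ± 47.2 CPM (adjusted p = 0.181; named after its value was seen). Toll and Imd genes, which control most of the humoral response, gave 9 rises and 7 falls of 22 tested (median 0.06), a called share of 72.7%. With limma on TPM or without WT replicate 3 there were 6 rises and 6 falls. The rises were also 6 without the count filter, with WT replicates 2 and 3 summed, and without WT replicate 2 or KO replicate 3. The receptor gene Tl rose from 6.36 ± 1.13 to 77.2 ± 4.55 CPM and modSP, a protease gene upstream of Toll, from 2.01 ± 1.27 to 68.3 ± 0.85 CPM. The transcription factor gene dl fell from 54.1 ± 1.92 to 19.3 ± 1.31 CPM and the caspase gene Dredd from 49.5 ± 1.12 to 21.5 ± 1.53 CPM. Genes listed for clotting, melanisation and transport in blood gave 4 rises and 4 falls of 11 (median 0.10), a called share of 72.7% too. Among them Glt, the gene of a basement membrane glycoprotein, rose from 14.8 ± 1.56 to 748 ± 8.50 CPM and PPO3, a prophenoloxidase gene, from 0.917 ± 0.023 to 27.5 ± 1.82 CPM, while the clotting factor gene fon fell from 82.4 ± 12.5 to 9.73 ± 4.03 CPM and the serpin gene Spn27A from 37.9 ± 7.35 to 18.1 ± 1.26 CPM.

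**Figure D4:**
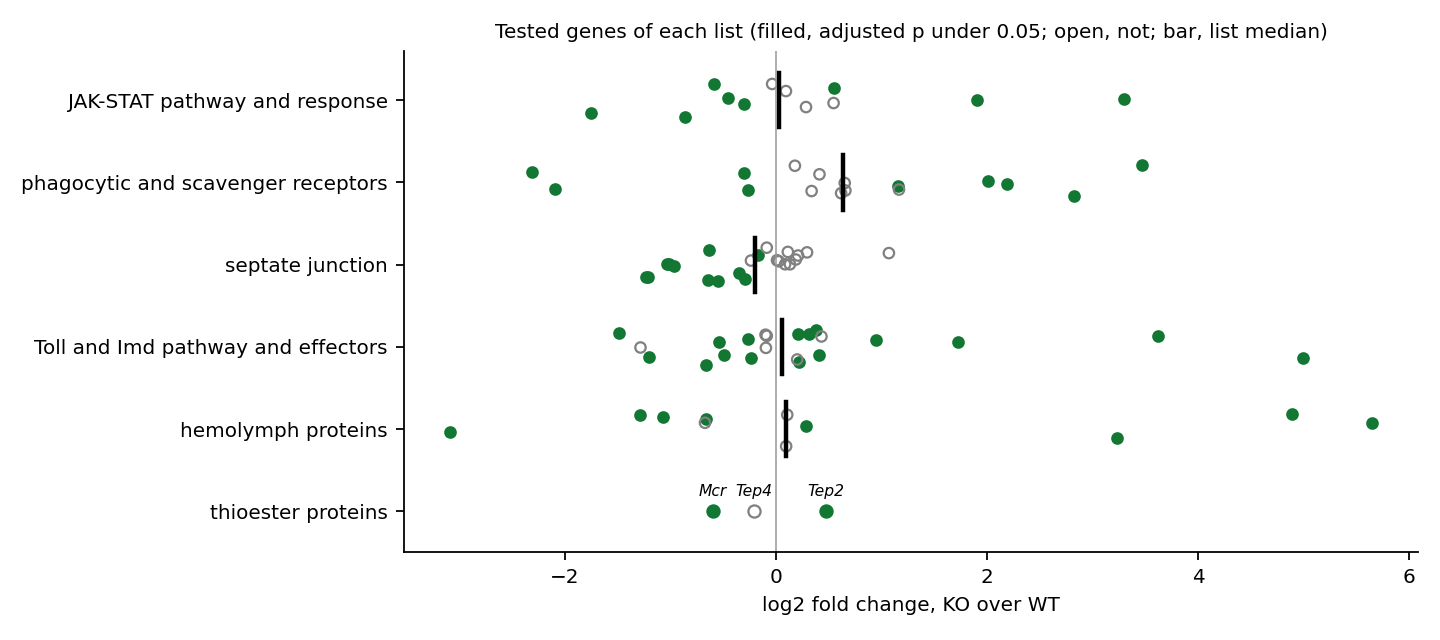
Log2 fold change (KO over WT) of the tested genes of 5 lists and of Tep2, Tep4 and Mcr; filled points passed the test (adjusted p under 0.05), open points did not, and the bar is the list's median. No septate junction gene that passed the test is higher in KO, while the other lists hold filled points on both sides.

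Cell type markers were read beside these results. Of all tested genes 54.1% were called, 27.7% as higher and 26.5% as lower. The called share was 81.8% for the plasmatocyte markers. The other marker lists held only 2 to 4 tested genes each, too few to set their called shares apart from that background. Of 12 plasmatocyte markers 11 were tested, with 7 higher and 2 lower, and their summed level was 4773 to 7002 CPM in the WT libraries and 7395 to 11656 in the KO libraries. The 2 lower markers were eater, whose fall is given above (adjusted p = 2.27e-06), and crq. The mean of crq was 55.1 CPM in WT and 44.6 CPM in KO (adjusted p = 0.00951; named after its value was seen). Hml, the marker with the most counts, stood at 4174 ± 700.4 and 4494 ± 719 CPM (adjusted p = 0.591; 0.0081 without both number-1 libraries, at a log2 fold change of 0.094), and He at 11.4 ± 3.71 and 21.2 ± 6.82 CPM (adjusted p = 0.0309, a call lost without WT replicate 2, WT replicate 3 or KO replicate 1). For the progenitor markers other than Tep4, the summed level was 379 to 404 CPM in WT and 417 to 445 in KO, with 1 of 3 tested higher and 1 lower, and kn and Antp, genes of the lymph gland niche, were under 1 CPM. Lamellocyte markers summed to 1150.4 to 1194 CPM in WT and 1342 to 1531 in KO (3 of 4 tested higher, 0 lower), and the defining marker atilla had 1 count in all. Crystal cell markers summed to 2.59 to 4.07 and 12.1 to 14.3 CPM (1 of 2 tested higher), with lz under 1 CPM, and fat body markers to 9.90 to 14.8 and 2.26 to 4.36 CPM (1 of 2 tested lower). The part of these shifts in the values of Tep2, Tep4 and Mcr was not tested.

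**Figure D5:**
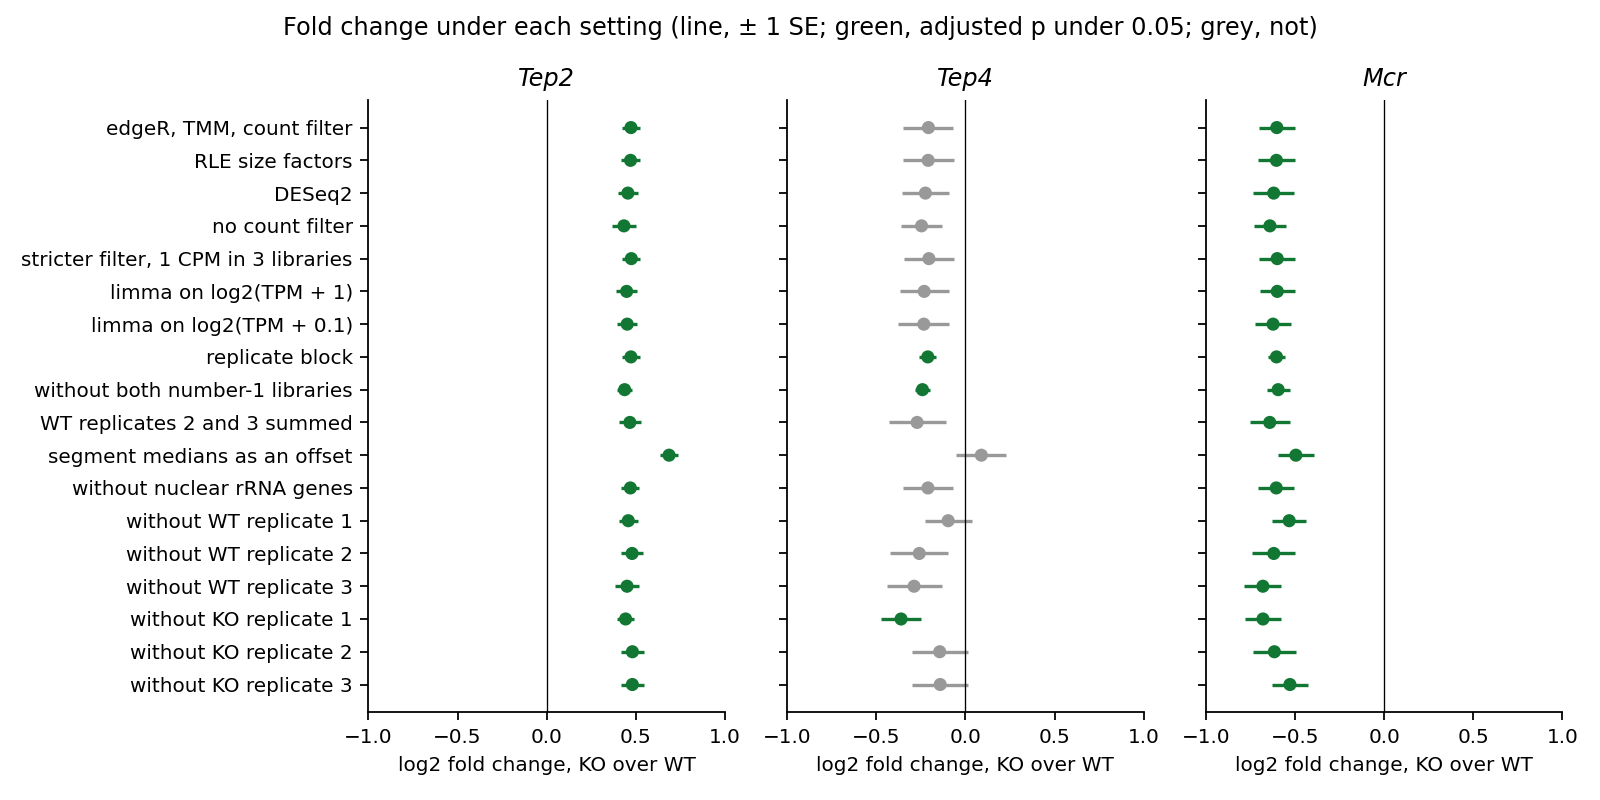
Log2 fold change (KO over WT) of Tep2, Tep4 and Mcr under the reported fit (top) and each of 17 alternatives, with a line of 1 SE on either side; green marks an adjusted p under 0.05. Tep2 is called higher and Mcr lower under every setting drawn, whereas Tep4 is called under 3 and lies above 0 under 1, the fit with segment medians as an offset.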

How the data were processed

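Poly(A) RNA of 3 WT and 3 KO libraries of Kc cells was sequenced. Tools listed in the submitters' processing notes are RSEM 1.3.0, STAR 2.7.0f, cutadapt and CASAVA 1.7, and the build is dm6. For the annotation release, tool options and strand use, the answer is not given in the sources used here. Per the file headers, the deposited tables hold RSEM expected counts, TPM and abundance-weighted transcript lengths in bases, a plain number other than a count.

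Expected counts were rounded and tested with edgeR 4.0.16 (R 4.3.3; TMM factors of 0.979 to 1.02, filterByExpr with a minimum count of 10, quasi-likelihood test, Benjamini-Hochberg adjustment over all tested genes). Normalised CPM use the scaled totals of tested genes. The SE is the log2 fold change divided by the square root of F. Lengths were tested with limma 3.58.1 for genes with a mean TPM of at least 5. DESeq2 1.42.0, limma on TPM and other fits were alternatives. Procedures were tested on simulated data.

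Coordinates and coding lengths come from the Ensembl annotation of the same build. Of the list symbols, 1 septate junction gene was not found. Members and lists were chosen with earlier results of these data known. Named genes are the members, CG14906, up to 4 called genes per list with the lowest p, genes within 20 kb, the 3 nearest profiles per member, and Hml, eater and He; 1 gene that the rule names is not reported here; others are said to be chosen later, and Trf, Atpalpha, Nrx-IV and the marker genes at or near 0 are given as context.

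Replicate numbers are shared between groups with no stated pairing. The correlation of deviations from the group means was 0.49, 0.13 and 0.34 for pairs of libraries with equal numbers, each over 0.1. The reported fit does not pair the libraries, and the replicate block, which does, is an alternative. WT replicate 2 correlated better with KO replicate 3 (0.32) than with KO replicate 2, so the pairing among replicates 2 and 3 is not settled.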

Additional observations from a re-analysis of the deposited data

How the results depend on the processing

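Tep2 was called higher and Mcr lower under all 17 alternatives, with log2 fold changes of 0.43 to 0.69 and -0.68 to -0.49. For Tep4 the log2 fold change was -0.21 with the replicate block and -0.24 without both number-1 libraries, both now called, and 0.090 with segment medians as an offset, the reverse direction without a call; leaving out 1 library gave -0.36 to -0.10, called only without KO replicate 1. The block changed no other call among the 5 genes; its effect on ref(2)P and on the JAK-STAT and septate junction lists stands beside them, and it gave 6 rises for the phagocytic list and 10 rises and 8 falls for the Toll and Imd list. Genes called numbered 3621 to 5801 over the alternatives (4551 in the reported fit). The number of genes called for length (109) fell to 14 with the replicate block and to 18 to 69 when 1 library was left out; the Tep4 length difference (log2 0.00013) ranged from -9.81e-05 to 0.000396 there, with -7.21e-05 without WT replicate 3. With segment medians as an offset, directions also turned for rin (-0.0083), ref(2)P (0.071), CG14906 (-0.28) and Hml (-0.13), and Hml ranged from -0.037 (without WT replicate 1) to 0.23 when 1 library was left out. The cause was not tested. Of 1221 values of the other named and listed genes under alternatives, 71 lost and 10 gained a call, and 5 changed direction. Depth limits Tep1 and Tep3, which could be fitted only without the count filter and with DESeq2, where the adjusted p was NA.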

Other observations

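A sixth gene of the family, Tep5, lies 2464 bases beyond Tep4 on the same strand of 2L and is a pseudogene in the annotation used here. It had 6, 5 and 4 counts in WT and 3, 4 and 1 in KO, too few for the count filter, and the ratio of its summed counts, WT over KO, was 1.59 (exact 95% binomial interval 0.633 to 4.33, counting error only). The highly expressed Tep4 and the nearly unread Tep5 are thus neighbours, as are Tep2 and the nearly unread Tep3, whose starts are 1203 bases apart.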
